A study of Mus musculus with 8 samples.

Results

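The 10 genes described here, Spem1, Spem2, Fabp9, Dbil5, Phospho1, Iqcf4, Spz1, Mroh5, Itpr3os and 1700012A03Rik, go by the label of late spermatid genes, and their array signal in mouse sperm stood far above that in epididymal tissue. They were taken by gene symbol out of 19411 genes with a probe set, and were chosen by the size of the measured sperm minus epididymis difference, so that rise is given as a description only. The measure is the log2 intensity of an Affymetrix gene array, where a difference of 1 is a doubling. All 10 passed the filter that left out the dimmest 30% of genes, among 13587 genes tested.

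The arrays held 6 sperm samples and 2 samples of epididymal tissue from C57/Bl6 mice. Sperm came from 3 control diet, 2 low protein diet and 1 caloric restriction sample, and epididymis from 1 control diet and 1 low protein diet sample. The control and low protein males were kept on their diet to an age of 9 to 12 weeks, while the labels state no age for caloric restriction, so age and that diet cannot be told apart. Sperm were let out of the punctured caudal epididymis into medium, were at least 99.5% pure under the microscope per the labels, and were discarded where Actb or Myh11 could be detected by PCR. Whether replicates were separate animals is not stated, and p-values here reflect the array-to-array spread alone, which may be technical.

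Late spermatids stop transcription as protamines replace the histones of their DNA, and messenger RNAs made before that point are stored and translated later. Cytoplasm is then shed and the head, acrosome and tail take their final form. Mature sperm carry a remnant of this RNA, while the epididymis is a duct of epithelium wrapped in smooth muscle. In bulk samples such as these, fewer cells of a type and less RNA per cell cannot be told apart.

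Among the members, Spem1 encodes a protein needed to strip the cytoplasm from the sperm head, and Spem2 is its relative and near neighbour on chromosome 11. Fabp9 encodes a fatty acid binding protein of the perforatorium, under the acrosome, and Dbil5 an endozepine-like peptide related to the acyl-CoA binding protein Dbi. Phospho1 encodes a phosphatase of phosphocholine and phosphoethanolamine, best known from bone mineralisation. Iqcf4 encodes a protein with an IQ motif, a calmodulin-binding element, and Spz1 a testis transcription factor of the helix-loop-helix zipper type. Mroh5 belongs to the maestro heat-like repeat family. Itpr3os is a long non-coding RNA gene that overlaps Itpr3, the gene of an inositol trisphosphate receptor, in the RefSeq annotation. The arrays do not separate the cells that made these RNAs.

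As the 10 signals are all high on the sperm arrays, promoters are shown for 5 of the 6 members that hold a shared short motif in the 300 bases around the start (250 before it, 50 after it). Sequences are from RefSeq on GRCm38.p6, 5′ to 3′ on the gene's strand, and 8 of the 10 members matched that table, all but Fabp9 and Mroh5. Capitals mark TNTGAC or TGACG on either strand. TGACG is the core of the cAMP response element, which CREM, the activator of many spermatid genes, is known to bind.
Spem1 promoter, chr11:69822116-69822415, minus strand: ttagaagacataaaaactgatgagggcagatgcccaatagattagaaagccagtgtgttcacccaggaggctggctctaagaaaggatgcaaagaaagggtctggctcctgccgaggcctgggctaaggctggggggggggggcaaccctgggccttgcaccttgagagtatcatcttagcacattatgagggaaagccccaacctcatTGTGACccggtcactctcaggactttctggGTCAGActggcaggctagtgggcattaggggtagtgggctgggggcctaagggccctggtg
Spem2 promoter, chr11:69818414-69818713, minus strand: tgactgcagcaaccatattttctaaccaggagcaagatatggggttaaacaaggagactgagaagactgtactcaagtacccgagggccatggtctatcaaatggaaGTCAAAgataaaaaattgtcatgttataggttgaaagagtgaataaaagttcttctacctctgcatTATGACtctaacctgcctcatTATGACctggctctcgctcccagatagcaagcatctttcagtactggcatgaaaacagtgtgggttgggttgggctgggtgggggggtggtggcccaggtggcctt
Dbil5 promoter, chr11:76217363-76217662, plus strand: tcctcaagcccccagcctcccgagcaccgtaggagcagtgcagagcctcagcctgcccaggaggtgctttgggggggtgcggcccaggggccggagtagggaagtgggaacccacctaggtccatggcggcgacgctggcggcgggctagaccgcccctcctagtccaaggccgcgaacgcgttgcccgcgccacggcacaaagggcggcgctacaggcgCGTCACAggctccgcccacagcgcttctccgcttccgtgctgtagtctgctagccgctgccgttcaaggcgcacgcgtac
Phospho1 promoter, chr11:95824250-95824549, plus strand: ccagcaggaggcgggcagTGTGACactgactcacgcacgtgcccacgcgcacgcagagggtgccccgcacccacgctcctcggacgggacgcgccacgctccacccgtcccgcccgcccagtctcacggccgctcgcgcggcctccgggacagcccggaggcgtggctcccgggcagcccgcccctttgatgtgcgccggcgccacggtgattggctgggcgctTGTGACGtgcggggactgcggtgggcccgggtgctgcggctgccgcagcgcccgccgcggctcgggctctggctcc
Iqcf4 promoter, chr9:106570918-106571217, minus strand: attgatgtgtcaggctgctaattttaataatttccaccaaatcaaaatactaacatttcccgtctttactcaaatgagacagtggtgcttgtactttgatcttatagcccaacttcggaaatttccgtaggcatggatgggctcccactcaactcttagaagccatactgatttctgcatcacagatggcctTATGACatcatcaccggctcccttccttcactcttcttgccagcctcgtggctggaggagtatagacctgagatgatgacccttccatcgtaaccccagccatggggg

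In Spem1, Spem2 and Iqcf4 TNTGAC stood upstream of the start on the gene's own strand, at bases 41 to 36 before the start in Spem1, 77 to 72 and 56 to 51 in Spem2, and 58 to 53 in Iqcf4. In Phospho1 TGACG lay at bases 24 to 20 before the start, and in Dbil5 its reverse lay at bases 30 to 26. In both genes TNTGAC overlapped it. TNTGAC was chosen after the sequences had been read, and was held by 6 of the 8 promoters (those 5 and 1700012A03Rik) against 40.1% of 32851 promoters of the same length. TGACG was held by 2 of 8, against 20.8% of all. The whole element TGACGTCA (1.79% of all) and TATAAA (13.6% of all) were in none of the 8 windows. A match here is a description of letters, not of a site.

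The sperm levels stood well above both epididymis arrays for every member. Member values ran from 7.96 to 11.85 in sperm and from 4.41 to 6.71 in epididymis, and the lowest sperm array exceeded the higher epididymis array by 3.12 to 3.81 for each gene. Of all tested genes, 24.8% had every sperm array above both epididymis arrays. The rule used this contrast, so nothing is read from that count or from the share of genes that limma called in it, which was 48.5% (18.4% higher in sperm and 30.1% lower).

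**Figure D1:**
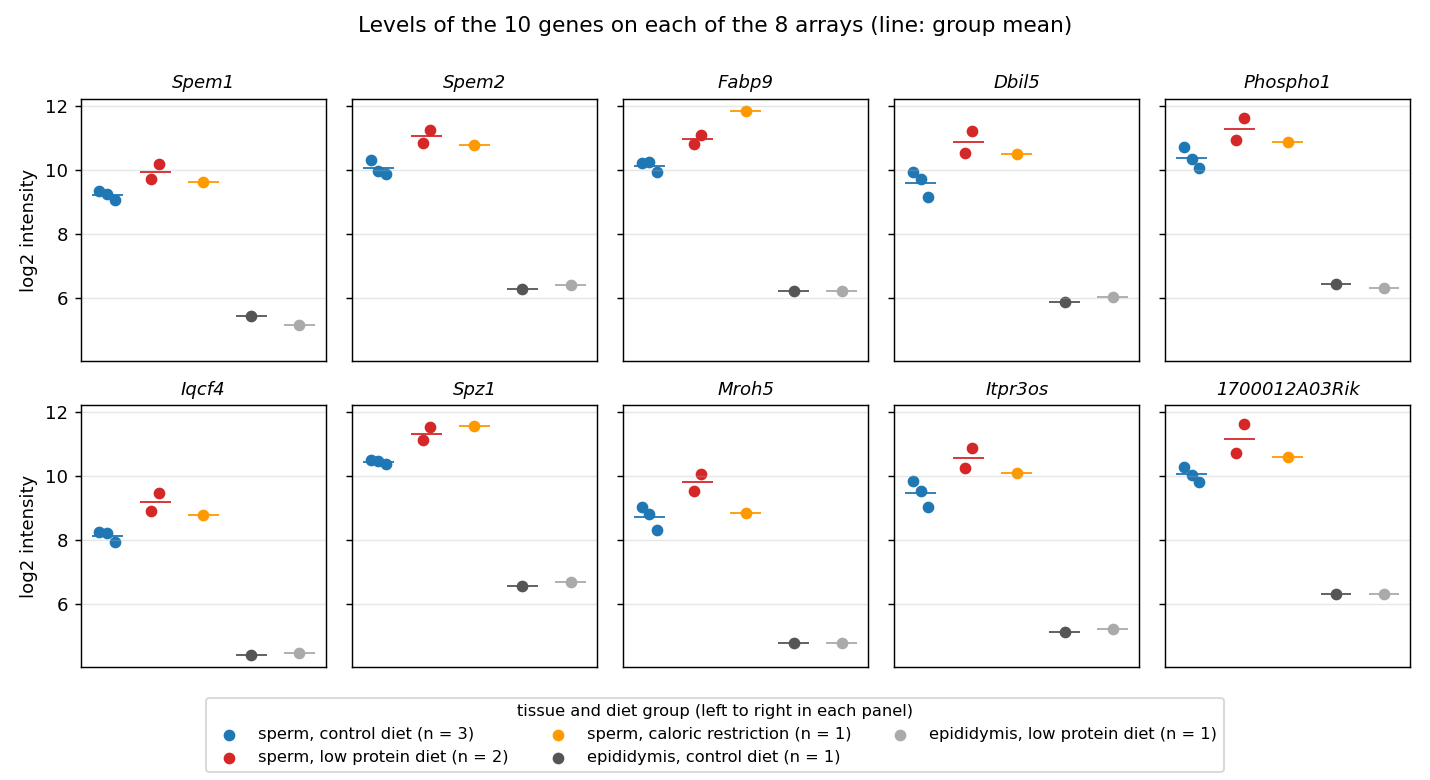
Log2 intensity (vertical axis) of each of the 10 genes on the 8 arrays, 1 panel per gene, with points for arrays in the order of the key and a line at each group's mean. The 2 epididymis arrays sit between 4.41 and 6.71 and the 6 sperm arrays between 7.96 and 11.85, with the low protein arrays above the control arrays in every panel.

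With diet taken into account the sperm minus epididymis difference ran from 4.17 ± 0.23 (SE) for Spem2 to 4.80 ± 0.30 for Itpr3os. Whether the epididymis signals lay above background was not tested, and those of Spem1, Iqcf4, Mroh5 and Itpr3os were under the filter level of 5.69, so no fold is given. These differences, set by 5 sperm and 2 epididymis arrays because the caloric restriction array has its own diet term, placed the members at rank 2 and at ranks 4 to 12 of 13587. Just above lay Gtsf1, a piRNA pathway factor, at 5.09, and Tnp2, a transition protein gene, at 4.50. Just below the lowest member came 1700009N14Rik at 4.15 and 4933411K16Rik at 4.13. Within a diet the difference was smaller on the control diet, from 3.72 for 1700012A03Rik to 4.33 for Itpr3os, than on the low protein diet, from 4.63 for Spz1 to 5.34 for Itpr3os.

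Beside the members, 24 other genes known from late spermatids were listed, of which 22 were on the array and 21 were tested. All 21 were higher in sperm than in epididymis by limma, and so were 4 of 6 tested markers of earlier germ cells, where 18.4% of all genes were. Of the earlier germ cell markers 12 were on the array, and those not tested were under the brightness filter. That filter used the mean of all 8 arrays, 6 of them sperm. A gene dim in epididymis was thus tested only where sperm was bright, so these counts are a description only. Among the 6 tested, 1 was lower in sperm. The median difference was 2.80 for the late spermatid list and 1.05 for the earlier germ cell list. Genes of both lists were called higher, so a call in this contrast does not by itself give a stage. The stage of the members was not tested.

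Within sperm, the 10 genes shared much of their order over the arrays. The low protein arrays were above all 3 control arrays for 10 of 10 members, against 18.8% of all tested genes. Control replicate 3 was the lowest sperm array for all 10 members (15.5% of all genes), and low protein replicate 2 was the highest for 8 of them (29.1% of all genes). All 3 restricted arrays were above all 3 controls for 9 members (15% of all genes). For Fabp9 and Spz1 the caloric restriction array was highest instead, and for Mroh5 it lay inside the control range on the probe set used. The order was not particular to the members. The median of the 21 other late spermatid genes tested was also lowest on control replicate 3, at 7.96, and highest on low protein replicate 2, at 9.37. Low protein replicate 2 stood apart from the other sperm arrays, with correlations of 0.71 to 0.86 over tested genes, so its values are given with each result. No array pair held identical values.

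**Figure D2:**
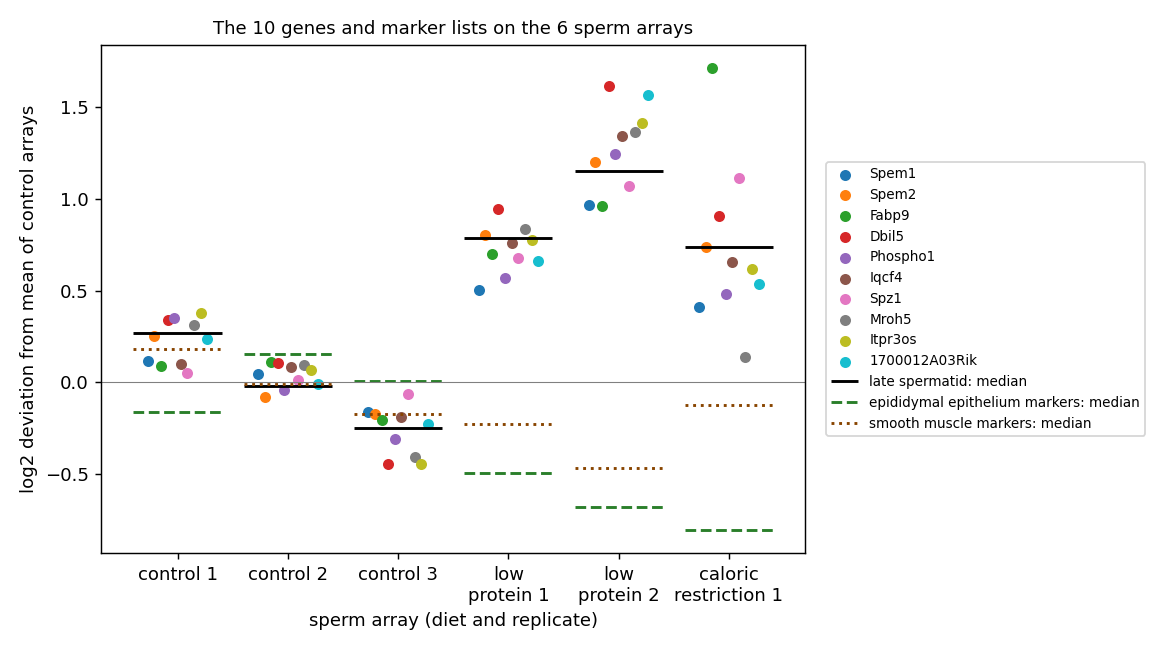
Log2 deviation of each of the 10 genes from the mean of the 3 control sperm arrays (vertical axis) on each sperm array (horizontal axis), with lines at the medians of the late spermatid, epididymal epithelium and smooth muscle lists. The members lie 0.50 to 0.94 above the control mean on low protein replicate 1, 0.96 to 1.61 above it on replicate 2 and 0.14 to 1.71 above it on the caloric restriction array.

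The cytoplasm removal gene Spem1 had the smallest low protein difference of the 10. Its values were 9.34, 9.27 and 9.06 on the control sperm arrays, 9.72 and 10.19 on the low protein arrays, 9.63 under caloric restriction, and 5.44 and 5.16 in epididymis on the control and low protein diets. The diets did not overlap in sperm, with caloric restriction just under the lower of the low protein arrays. Low protein was higher than control by 0.74 ± 0.20 (moderated SE, adjusted p by limma 0.110), which did not pass the threshold of 0.05.

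Its neighbour Spem2 read 10.31, 9.98 and 9.88 on the control arrays, 10.85 and 11.26 on low protein, 10.79 on caloric restriction, and 6.30 and 6.42 in epididymis. All 3 restricted arrays lay above all 3 controls. The low protein difference was 1.00 ± 0.20 (adjusted p by limma 0.0847), and over both restricted diets together Spem2 rose by 0.91 ± 0.19 (adjusted p by limma 0.0443, higher in 3 of 3 arrays).

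The fatty acid binding protein gene Fabp9 was highest under caloric restriction. Its control arrays stood at 10.22, 10.25 and 9.93, low protein at 10.83 and 11.10, caloric restriction at 11.85, and epididymis at 6.24 and 6.23. All restricted arrays lay above control. Against control it rose by 1.71 ± 0.23 (adjusted p by limma 0.00521, 1 array against 3), while the low protein difference was 0.83 ± 0.18 (adjusted p 0.0847).

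The endozepine gene Dbil5 had the largest low protein difference of the members. It read 9.94, 9.71 and 9.16 in control sperm, 10.55 and 11.22 on low protein, 10.51 on caloric restriction, and 5.87 and 6.04 in epididymis. Low protein replicate 2 lay 1.61 above the control mean and replicate 1 lay 0.94 above it. The mean difference was 1.28 ± 0.28 (adjusted p by limma 0.0853), and both restricted diets together gave a rise of 1.15 ± 0.26 (adjusted p by limma 0.0493).

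The phosphatase gene Phospho1 ran from 10.08 to 10.74 on control arrays, at 10.96 and 11.63 on low protein and at 10.87 on caloric restriction, so the groups did not overlap but lay close. Its low protein difference of 0.91 ± 0.26 had an adjusted p by limma of 0.128, the largest of the 10. Phospho1 overlaps Abi3 in the RefSeq annotation, and the arrays were not checked for probes that could read both.

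The calmodulin-binding family gene Iqcf4 read 8.25, 8.23 and 7.96 on control, 8.90 and 9.49 on low protein and 8.80 on caloric restriction, with 4.41 and 4.49 in epididymis. The restricted arrays all lay above control. The low protein difference was 1.05 ± 0.21 (adjusted p by limma 0.0847), and the difference over both diets was 0.92 ± 0.21 (adjusted p 0.0509).

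The transcription factor gene Spz1 had the tightest control arrays, at 10.51, 10.47 and 10.40 (mean 10.46 ± 0.059, SD, n = 3). Low protein stood at 11.14 and 11.53, caloric restriction at 11.58 and epididymis at 6.56 and 6.71. Caloric restriction and the brighter low protein array were nearly level, and all 3 restricted arrays were clear of control. Spz1 rose by 1.12 ± 0.23 under caloric restriction (adjusted p by limma 0.0263) and by 0.95 ± 0.17 over both diets (adjusted p 0.0411), with 0.87 ± 0.18 for low protein alone (adjusted p 0.0847).

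The repeat family gene Mroh5 was the member in which the diets separated least evenly. Its values were 9.03, 8.81 and 8.31 in control sperm, 9.55 and 10.08 on low protein, 8.86 under caloric restriction, and 4.80 and 4.79 in epididymis. For this member alone, on the probe set used, the caloric restriction array fell inside the control range. The gene's other probe sets are given below. The low protein difference was 1.10 ± 0.26 (adjusted p by limma 0.0874) and the caloric restriction difference 0.14 ± 0.32 (adjusted p 0.847).

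The non-coding RNA gene Itpr3os read 9.85, 9.54 and 9.03 on control, 10.25 and 10.88 on low protein, 10.09 on caloric restriction, and 5.14 and 5.22 in epididymis. The restricted arrays were all above control, with caloric restriction the closest to it. The low protein difference was 1.09 ± 0.28 (adjusted p by limma 0.103). Itpr3, which it overlaps, had the nearly flat values of 6.74 to 7.09 over all 8 arrays and a low protein difference of -0.08 (adjusted p by limma 0.786).

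The last member, 1700012A03Rik, read 10.30, 10.05 and 9.83 on control, 10.72 and 11.62 on low protein, 10.59 on caloric restriction, and 6.34 and 6.31 in epididymis. Its low protein arrays lay 0.91 apart, the widest gap of the 10. The low protein difference was 1.11 ± 0.28 (adjusted p by limma 0.0959).

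Low protein against control in sperm gave no call by limma for any of the 10 members, and for 0% of the 13587 genes tested. The members' differences ran from 0.74 to 1.28 with a median of 1.02, where the median over all tested genes was -0.06. At an unadjusted p under 0.05 the counts were 10 of 10 members and 3406 of all genes, and eBayes with a trend or robust also called 0. Without low protein replicate 1 the median of the members was 1.29. The single low protein array then left was replicate 2, which stood apart from the other sperm arrays. Without replicate 2 the median of the members was 0.73. In either fit the array left is assumed to vary like the controls, so calls in these fits are not read.

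Caloric restriction against control, a single array against 3, gave 2 calls among the 10, Fabp9 and Spz1, where 5.56% of all tested genes passed (5.53% higher, 0.0368% lower). All 10 members had a positive difference, with a median of 0.64 against -0.11 over all genes. Of them 9 lay above every control array, all but Mroh5, and 27.3% of all genes did. Fabp9 remained past the threshold under every one of the 14 alternatives run, with adjusted p by limma between 5.6e-05 and 0.0311. Spz1 lost it under quantile normalization (adjusted p 0.0540), cyclic loess (0.0732), eBayes with a trend (0.125) and without control replicate 1, 2 or 3 (0.0783, 0.124 and 0.120). With low protein replicate 1 or 2 left out, the median of the members was again 0.64. Either fit leaves 1 low protein array, so calls in it are not read.

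Both restricted diets together, 3 arrays against 3 control arrays, gave 3 calls, Spz1, Spem2 and Dbil5, all higher, against 2.75% of all tested genes (2.72% higher, 0.0294% lower). Fabp9, at 1.12 ± 0.25, had an adjusted p by limma of 0.0503. The median of the 10 differences was 0.92, against -0.07 over all genes. None of the 3 calls held with an eBayes trend. Dbil5 also lost its call under quantile normalization (adjusted p by limma 0.0575), cyclic loess (0.0513), the 50% filter (0.0556) and robust eBayes (0.0505), and Spem2 under quantile normalization (0.0536) and the 50% filter (0.0505). No member passed without any 1 of the 3 control arrays or without the caloric restriction array, and 5 passed without low protein replicate 1 or replicate 2. The 3 comparisons with control share its arrays.

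**Figure D3:**
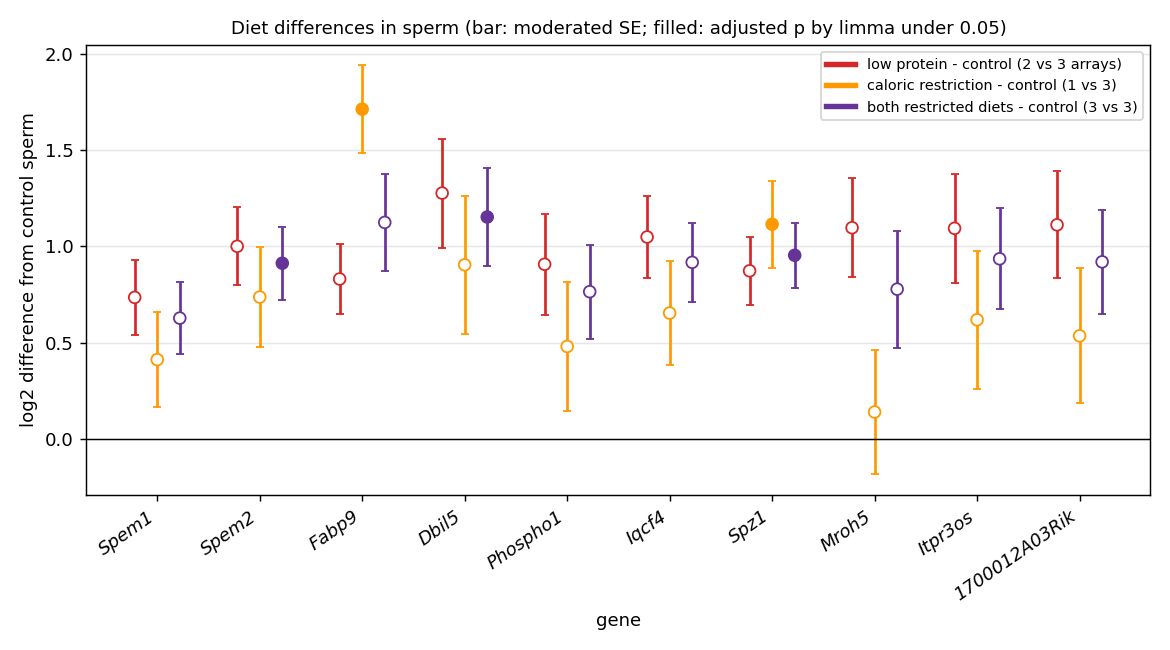
Log2 difference from control diet sperm (vertical axis) for each of the 10 genes under low protein, caloric restriction and both diets together, with bars of 1 moderated SE; filled points have an adjusted p by limma under 0.05. All differences are above 0 and the filled ones are Fabp9 and Spz1 under caloric restriction and Spem2, Dbil5 and Spz1 over both diets.

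The restricted diets were also set against each other, with no call among the 10 and 0% of all genes (2 members and 1316 genes at an unadjusted p under 0.05 by limma; eBayes with a trend called 23 genes and robust eBayes 0). Low protein was the higher for 8 members, by up to 0.96 ± 0.34 in Mroh5 (adjusted p by limma 0.398), and caloric restriction for Fabp9 and Spz1. For Fabp9 low protein minus caloric restriction was -0.88 ± 0.24 (adjusted p by limma 0.228). In the order of levels, low protein, caloric restriction and control therefore followed each other in 8 genes, but low protein and caloric restriction did not differ past the threshold in any, nor did caloric restriction and control outside Fabp9 and Spz1.

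In epididymis, with 1 array per diet and no test, the members differed little between diets. The signals of Spem1, Iqcf4, Mroh5 and Itpr3os there were under the filter level of 5.69. Whether any member's signal lay above background was not tested. Small differences therefore do not tell whether diet left these genes unchanged in epididymis. Low protein minus control ran from -0.28 in Spem1 to 0.17 in Dbil5, and no member reached 1, as 0.0662% of all genes did (0.00736% higher, 0.0589% lower). The low protein difference in sperm exceeded that in epididymis by 0.73 to 1.14, with a median of 1.01. That difference, added after the values were seen, was past the threshold for no member (adjusted p by limma 0.875 for each; 5 members at an unadjusted p under 0.05) and for 0% of all genes (610 unadjusted; eBayes with a trend or robust also called 0). Without low protein replicate 1, which leaves replicate 2 as the only low protein sperm array, the median of that difference over the members was 1.30.

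Signal of other cell types also differed between the sperm arrays, and not in the same way for each list. Summed on the linear scale, the 17 epididymal epithelium markers on the array were at 38.0% to 47.7% of their epididymis level on the control sperm arrays, 20.5% and 31.7% on low protein and 28.9% on caloric restriction. The 12 smooth muscle markers were at 12.2% to 14.5%, at 7.28% and 9.58%, and at 11.2%. The array with the highest values for 8 members, low protein replicate 2, had the lowest level of both. Control replicate 3, the lowest sperm array for every member, did not have the highest level of either. It stood at 45.1% for epithelium, between the other controls, and at 12.2% for smooth muscle, the lowest of the controls. Fibroblast and matrix markers stood at 39.6% to 58.0% in control, 32.2% and 40.9% on low protein and 57.1% on caloric restriction, and leukocyte markers at 83.5% to 168%, 150% and 153%, and 192%. For both of these lists control replicate 3 was the highest of the controls, at 58.0% and 168%. No marker reads 0 on this log2 scale, and no detection calls were used. The part of these cells in the diet differences was not tested.

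With all arrays in the fit, the marker genes themselves mostly missed the threshold. Of 13 tested epithelium markers 0, 2 and 0 fell with low protein, caloric restriction and both diets, with medians of -0.45, -0.55 and -0.51. Adam7 and Clu, of the epithelium, differed by -1.02 and -0.72 over both diets (adjusted p by limma 0.127 and 0.0727). Of 12 smooth muscle markers none passed in any of these comparisons (medians -0.41, -0.32 and -0.43), nor did any of 7 leukocyte markers (medians 0.25, 0.23 and 0.35). Of 7 fibroblast and matrix markers 1 fell with caloric restriction, and the medians were -0.40, 0.24 and -0.28. In these comparisons no epithelium marker and 1, 1 and 1 of the smooth muscle markers had a positive difference. For fibroblast and matrix markers these counts were 1, 4 and 1, and for leukocyte markers 5, 5 and 5. Of all tested genes 43.5%, 37.7% and 40.6% had a positive difference. Earlier germ cell markers, of which 6 were tested, had 0, 2 and 2 rises with medians of 0.50, 0.21 and 0.40, and 4, 3 and 4 of the 6 were positive. Over both diets Ddx4 rose by 1.31 and Mael by 1.30 (adjusted p by limma 0.0411 and 0.0493), while Zbtb16 was at -0.56 and Kit at -0.49 (adjusted p 0.114 and 0.140). With low protein replicate 1 left out, a single low protein array remained, so calls of these markers under low protein in that fit are not read.

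The 21 other late spermatid genes were higher in all restricted diet comparisons too, with medians of 0.91, 0.71 and 0.86 for low protein, caloric restriction and both diets, and 0, 7 and 7 of the 21 rose, where 0%, 5.53% and 2.72% of all genes did. Of the 21, 12 rose over both diets without low protein replicate 1, where 958 of 13587 genes rose. Without replicate 2, 9 rose over both diets, where 627 genes did. Over both diets none of the 21 passed when a control array or the caloric restriction array was left out, nor did any other gene. Of the 21, 2 passed with an eBayes trend and 15 with array weights, and 4 of 19 passed with the 50% filter. Caloric restriction called 2 and 3 of them without control replicates 2 and 3, and 14 with array weights. Capza3, an actin capping protein gene of spermatids, rose by 1.36 ± 0.20 over both diets (adjusted p by limma 0.0411), and Cylc2, of the sperm head cytoskeleton, by 1.38 ± 0.30 (adjusted p 0.0459). Smcp, a gene of the sperm mitochondrial capsule, was at 0.31 ± 0.19 (adjusted p 0.314) and Odf1, of the tail's outer dense fibres, at 0.35 ± 0.16 (adjusted p 0.201). The summed level of the list was 621% to 852% of epididymis in control sperm, 979% and 1240% on low protein and 999% on caloric restriction. The members' median of 0.92 over both diets lay near this list's.

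Family relatives and partners of the members, 29 on the array and 20 tested, had 0, 5 and 5 rises and no fall (medians 0.42, 0.55 and 0.52), where 0%, 5.53% and 2.72% of all genes rose. Without low protein replicate 1 there were 6 rises and 1 fall over both diets, where 958 of all genes rose and 470 fell. Without replicate 2 there were 6 rises, where 627 of all genes rose. Over both diets none passed when a control array or the caloric restriction array was left out, nor did any other gene. Under caloric restriction 1 passed without any 1 control array. Iqcf3, next to Iqcf4 on chromosome 9, rose by 1.01 ± 0.18 over both diets (adjusted p by limma 0.0411). Of the Mroh family, Mroh7 rose by 1.10 ± 0.18 and Mroh2b by 0.99 (adjusted p by limma 0.0411 for each). Mroh8 rose by 0.80 and Mroh4 by 0.79 (adjusted p by limma 0.0459 and 0.0443). Mroh9 at 1.31, Mroh2a at 0.68 and Mroh1 at -0.10 missed the threshold (adjusted p by limma 0.0779, 0.0995 and 0.743). So did Mroh5 itself at 0.78 ± 0.30 (adjusted p by limma 0.153). Mroh9 rose by 2.27 ± 0.22 under caloric restriction (adjusted p by limma 0.00242). In that diet Mroh5 lay within control on the probe set used, but above control on its others. Dbi, the broadly expressed relative of Dbil5, differed by -0.38 over both diets (adjusted p 0.309). Its acyl-CoA binding relatives Acbd7 and Acbd4 differed by -0.75 and -0.53 (adjusted p by limma 0.218 and 0.125). All 9 relatives of Fabp9 on the array were under the brightness filter.

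Mroh5 alone has several probe sets, and its 8 differ in size. The chosen one, the brightest, had a sperm mean 4.31 above the epididymis mean, while the other 7 ran from 0.49 to 2.04, with every sperm array above both epididymis arrays in each. Averaging the 8 gives a tissue difference of 1.36. The low protein arrays were above all controls in 5 of the 8 probe sets, and the low protein mean was higher in all, by 0.16 to 1.11. The caloric restriction array lay 0.14 above the control mean on the chosen probe set and 0.22 to 0.69 above it on the other 7. On each of those 7 it was above every control array, though nearly level with the highest on probe set 10429444 (7.8285 against 7.8267). Mroh5 overlaps Gm6569 and Ndufb4c in the annotation, and which part of the gene each probe set reads was not analysed here.

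**Figure D4:**
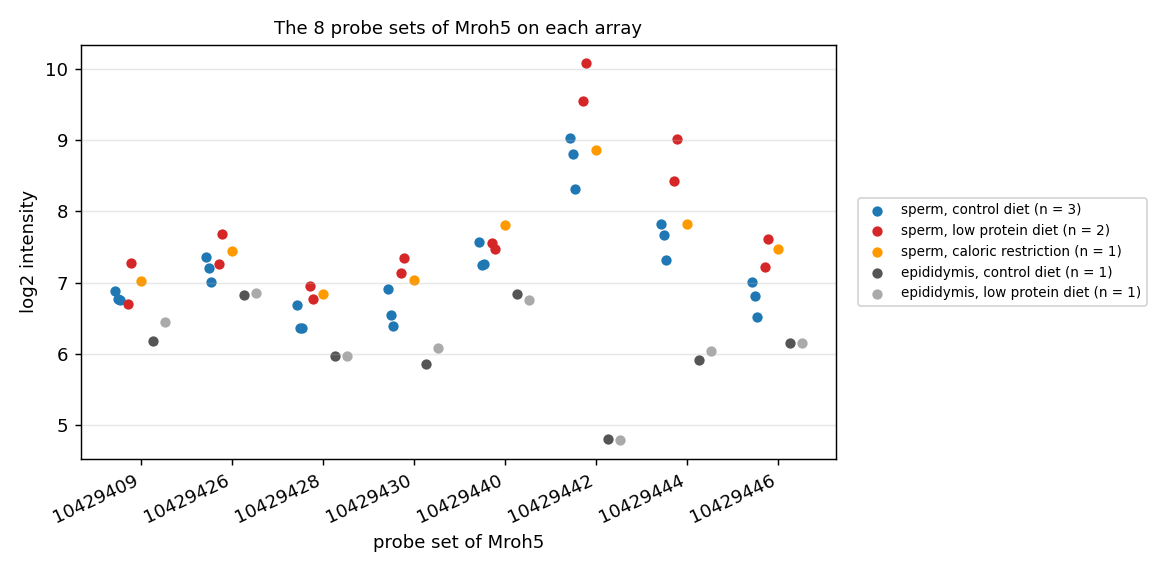
Log2 intensity (vertical axis) on the 8 arrays for each of the 8 probe sets of Mroh5 (horizontal axis), with points coloured by tissue and diet. The probe set used in the text stands 4.31 higher in sperm than in epididymis on average, and the other 7 stand 0.49 to 2.04 higher.

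The members' profiles over the 8 arrays, each centred on its own mean, were set beside their common profile, the mean of the members themselves. The root mean square difference from it ran from 0.0993 for Iqcf4 to 0.362 for Fabp9, where the median over all tested genes was 1.97. Of genes outside the 10, 4933411K16Rik (0.128), 1700016H13Rik (0.152), Spata18 (0.158), Tnp2 (0.171) and 2610318N02Rik (0.183) came closest over these 8 arrays. The gap between sperm and epididymis, which the rule used, is part of every one of these profiles. The closeness of the members follows in part from that choice and from their share in the mean, so nothing is read from it.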

How the data were processed

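RNA was measured on 1 Affymetrix gene array per sample, in 8 samples. The authors deposited log2 intensities for each probe set, from RMA according to the submitters' processing notes. The version of RMA and the genome build were not given in the sources used here. RMA usually includes quantile normalization of the arrays, which hides any change in total RNA. Of 33660 probe sets, 21222 had 1 gene symbol by the platform annotation, 1541 several and 10897 none. Of those with 1 symbol, 21137 were found by gene identifier in RefSeq's GRCm38.p6 annotation and given its symbol, changed or not. The brightest probe set by mean stood for a gene. The lowest 30% of genes by mean (log2 5.69 and below) were left out.

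Diets were compared over the 6 sperm arrays with limma 3.58.1 in R 4.3.3 (lmFit, eBayes, two-sided, Benjamini-Hochberg adjustment over 13587 genes, threshold 0.05). The lone caloric restriction array was taken to have the spread of the other diets. The tissue fit used 8 arrays with diet as an additive term. The fits were tested on simulated data. Array medians ran from 6.08 to 6.17, and the number of arrays limits the precision.

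The members, gene lists and tests were chosen with earlier results of these data known. Named genes are the 10 members, the 5 nearest profiles, the genes ranked next to the members, and, from the lists, genes with the largest rises and falls over both restricted diets. The relatives Iqcf3, Mroh1, Mroh2a, Mroh2b, Mroh4, Mroh8, Itpr3 and Dbi were named after their values were seen. Alternatives were other normalizations, filters, averaging a gene's probe sets, array weights, robust eBayes, eBayes with a trend, and leaving out each sperm array.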

Additional observations from a re-analysis of the deposited data

How the results depend on the processing

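Every member stayed higher under low protein and over both diets in all 15 alternatives run, with differences of 0.50 to 1.66 (adjusted p by limma 0.000213 to 0.449) and 0.46 to 1.47. Under caloric restriction the sign changed only for Mroh5, at -0.0636 without control replicate 3; with other arrays left out it reached 0.30 (without control replicate 1), and 0.34 with the mean of probe sets. Low protein against control called 237 genes under cyclic loess; with 1 array left out, genes called ran from 0 to 5155 and members from 0 to 10. For caloric restriction, 1 member was called under quantile normalization, cyclic loess and eBayes with a trend, and 5 members and 2738 genes (1771 higher, 967 lower) under array weights; with 1 array left out, 298 to 2021 genes and 1 to 5 members. Between the restricted diets, genes called were 135 under cyclic loess, 23 with a trend and 66 with array weights, and with 1 array left out 0 to 1956, with 0 to 2 members. Over both diets, genes called were 589 under cyclic loess, 197 with the 50% filter (1 member), 168 with a trend (0 members) and 1496 with array weights (8 members; 1095 genes higher, 401 lower); the mean of probe sets called 5 members. With 1 array left out these were 0 to 1428 genes and 0 to 5 members. For the low protein difference in sperm minus that in epididymis, 1 array left out gave 0 to 1639 genes and 0 to 7 members. The cause of these changes was not tested. Genes higher in sperm than in epididymis were 37.9% of those called, 34.1% after median centring, 47.1% after quantile normalization and 50.8% after cyclic loess. No paired analysis was possible because the labels give the arrays no shared replicate numbers.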
